A study of Mus musculus with 70 samples.

Results

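The dual-specificity MAP kinase phosphatases are the enzymes that switch MAP kinases off, and their transcripts were followed here across the tissues of mice lacking an isoform of Capicua. The family was taken as the 10 genes Dusp1, Dusp2, Dusp4, Dusp5, Dusp6, Dusp7, Dusp8, Dusp9, Dusp10 and Dusp16, found by matching the versioned Ensembl identifiers of the count table to mouse gene symbols. Of these, 9 were matched among 50789 identifiers, and Dusp10 was not analysed here. Capicua, the product of Cic, represses transcription and comes in a short and a long form. Bulk RNA was sequenced from Cic-S-KO mice, which lack the short isoform, from Cic-L-KO mice, which lack the long isoform, and from wild-type (WT) littermates of both lines pooled into 1 control group. Lung came from pups at P6, and both brain regions, cortex and cerebellum, from mice aged 12 weeks. The 70 samples formed 9 groups of tissue and genotype, each of 8 samples except Cic-S-KO cortex and Cic-S-KO cerebellum with 7 samples each. The labels give neither the sex of the mice, nor the construction of the alleles, nor the line from which each WT sample came. They also do not say that replicates came from separate animals, so p-values measure the spread between these samples.

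A MAP kinase is active only while both the threonine and the tyrosine of its activation loop carry phosphate, and a dual-specificity phosphatase removes both. The family divides by place and substrate. Dusp1, Dusp2, Dusp4 and Dusp5 encode nuclear enzymes whose genes are induced by growth factors or stress, Dusp5 acting mainly on ERK. Dusp6, Dusp7 and Dusp9 encode cytoplasmic enzymes that prefer ERK, and Dusp6 is a widely used transcriptional readout of ERK signalling. Dusp8, Dusp10 and Dusp16 encode enzymes directed at JNK and p38. Because ERK signalling releases genes from Capicua and also induces several of these phosphatases, the family lies on the negative feedback of the same pathway.

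Promoter windows of 7 of the 9 counted members were found in RefSeq for GRCm38.p6, each running from 250 bases before to 50 bases after the gene's start. They were searched on both strands for the Capicua octamers TGAATGAA, TGAATGGA, TCAATGAA and TCAATGGA. Dusp6 and Dusp16 held such letters and Dusp1, Dusp2, Dusp5, Dusp7 and Dusp8 did not, while 3.84% of 32851 promoter windows did. Searches for the cyclic AMP response element TGACGTCA, present in 1.79% of windows, and for the CArG box bound by serum response factor, present in 1.63%, were added with the values already known. The 5 stretches of 120 bases that follow are shown because they hold the matches, which are in capitals. A match describes letters in the window and is no measure of binding.
Dusp6: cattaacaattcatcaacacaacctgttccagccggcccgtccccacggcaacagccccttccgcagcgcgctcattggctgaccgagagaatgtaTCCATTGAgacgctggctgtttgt
Dusp16: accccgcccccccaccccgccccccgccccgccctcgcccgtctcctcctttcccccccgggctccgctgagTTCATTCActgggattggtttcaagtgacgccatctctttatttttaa
Dusp1: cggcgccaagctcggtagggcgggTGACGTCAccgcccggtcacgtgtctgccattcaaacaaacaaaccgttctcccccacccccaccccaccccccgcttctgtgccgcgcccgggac
Dusp8: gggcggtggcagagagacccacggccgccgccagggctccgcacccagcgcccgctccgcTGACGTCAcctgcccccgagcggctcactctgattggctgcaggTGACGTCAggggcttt
Dusp5: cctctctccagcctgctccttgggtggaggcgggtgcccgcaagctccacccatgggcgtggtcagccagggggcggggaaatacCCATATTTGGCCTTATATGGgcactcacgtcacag

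The stretch of Dusp6 lies on the plus strand at chr10:99263111-99263230 and ends at the base before the gene's start. Its capitals are a Capicua octamer read on the opposite strand, and a second match begins 1 base past the start. The stretch of Dusp16, on the minus strand at chr6:134792676-134792795, carries an octamer on the opposite strand that begins 95 bases before the start. Dusp1 has 1 cyclic AMP response element, on the minus strand at chr17:26508520-26508639. Dusp8 has 2 such elements, on the minus strand at chr7:142095332-142095451, and both of these stretches lie inside the longer spans that GENCODE gives the genes. Dusp5 has 2 adjoining CArG boxes, on the plus strand at chr19:53528978-53529097. No window was matched for Dusp4 or Dusp9.

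The libraries held about 17798700 to 35523000 counted reads in lung, 20730800 to 32549000 in cortex and 20440800 to 30464700 in cerebellum. Batch 1 was the lung and batch 2 the brain, so tissue, age and batch cannot be told apart between lung and brain, and no test was made between them. Marker genes were high in the tissues the labels name: the summed level of 5 alveolar type 2 genes, in counts scaled to library size (CPM), had a WT median of 16649 in lung, that of 4 cortical excitatory neuron genes 1885 in cortex, and that of 5 granule cell genes 4716 in cerebellum. Counts per gene do not separate the Cic isoforms, so they do not check which isoform a mouse lacked. Total Cic was 162 ± 8.62 CPM in WT cortex (SD, n = 8), 250.6 ± 7.64 in Cic-S-KO cortex (n = 7) and 298 ± 16.99 in Cic-L-KO cortex (n = 8). Summed choroid plexus markers ranged from 18.7 to 571 CPM over the WT cortex samples and from 16.0 to 2977 over the WT cerebellum samples. Whether that spread moved with any phosphatase was not tested.

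In WT tissue the phosphatase with the highest mean differed between cortex, cerebellum and lung, and only in cerebellum was it separated from the next. Levels between genes were compared as CPM per kilobase of exon (RPKM). In cortex the highest was Dusp8, at 36.6 ± 1.74 RPKM (SD, n = 8), followed by Dusp6 at 30.3 ± 6.41 and Dusp7 at 26.7 ± 2.67, and the ranges of these neighbours overlapped. In cerebellum Dusp5 led at 52.4 ± 8.15 RPKM, and its lowest sample, at 40.8, lay above the highest sample of the next member, Dusp8, at 35.5. In lung Dusp6 at 59.4 ± 16.7 and Dusp1 at 54.1 ± 37.8 RPKM led with overlapping ranges, and Dusp7 followed at 22.5 ± 2.35. Dusp2 and Dusp9 were the 2 lowest members in all 3 tissues, between 0.0602 and 1.07 RPKM.

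**Figure D1:**
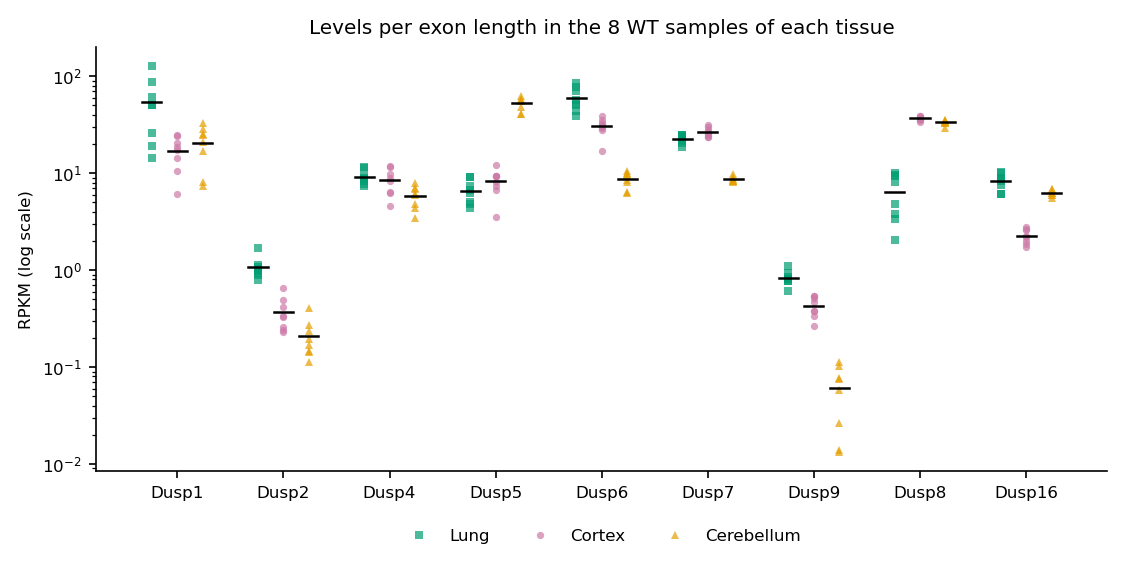
Levels of the 9 phosphatases in WT mice as RPKM on a log axis, each symbol 1 of 8 samples of a tissue and each bar the mean. Dusp5 leads in cerebellum, and Dusp8 has the highest mean in cortex, where its range overlaps that of Dusp6. Dusp2 and Dusp9 are lowest in each tissue.

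Within WT brain, 8 of 9 members differed between cortex and cerebellum, in a comparison that called 73.5% of 18032 genes. The median absolute log2 difference was 1.39 over the members and 0.47 over all genes tested. Dusp5, the ERK phosphatase of the nucleus, was lower in cortex, with samples of 8.73, 21.4 and 30.2 CPM (lowest, median and highest) against 101, 138 and 155 CPM in cerebellum. The groups did not overlap, and the log2 difference was -2.59 (SE 0.170, edgeR adjusted p = 1.55e-17). Dusp16 was lower in cortex as well, by -1.39 on the log2 scale (SE 0.0805, edgeR adjusted p = 4.35e-21), at 17.6 ± 3.03 against 48.7 ± 3.31 CPM. Its groups did not overlap either. The 3 cytoplasmic members were all higher in cortex and did not overlap between regions: the log2 difference was 1.89 (SE 0.123) for Dusp6, 1.71 (SE 0.0609) for Dusp7 and 2.88 (SE 0.330) for Dusp9. The share of all genes without overlap was not counted, here or in the later comparisons. Dusp9 rested on 14 to 45 reads per library in cortex and 0 to 10 in cerebellum. Smaller differences in the same direction passed for Dusp2 at 0.90, Dusp4 at 0.62 and Dusp8 at 0.21 on the log2 scale. Dusp1 did not pass, with a log2 difference of -0.19 (95% confidence interval -0.71 to 0.32).

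The comparison of genotypes asked how loss of each Capicua isoform bears on the family in each tissue. Among the 9 contrasts within a tissue, 14 of 78 member tests passed the threshold of an adjusted p below 0.05, and 5 of the 14 were Dusp4 and 4 were Dusp7. Against WT, Dusp4 was higher without the long isoform in lung and cerebellum, Dusp7 was lower without it in both brain regions, Dusp5 was lower without it in cortex, Dusp8 and Dusp16 were lower without it in cerebellum, and Dusp2 was higher without the short isoform in lung. Dusp1, Dusp6 and Dusp9 passed in no contrast within a tissue.

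Each count is set here beside the share of all genes called in the same contrast. In lung, Cic-S-KO against WT called 1 of 9 members and 15.7% of 16695 genes, Cic-L-KO against WT called 1 member and 4.89% of genes, and the 2 knockouts against each other called 1 member and 12.2%. In cortex, Cic-L-KO against WT called 2 of 9 members and 43.2% of 16974 genes, and the knockouts against each other called 2 members and 33.9%. Cic-S-KO cortex against WT called 0 members by edgeR, beside 6.53% of genes, with 0 at an unadjusted p under 0.05 and 0 by DESeq2. In cerebellum, where 8 members passed the filter on low counts, Cic-L-KO against WT called 4 members and 21.5% of 16643 genes, and the knockouts against each other called 3 members and 12.4%. Cic-S-KO cerebellum against WT called 0 members by edgeR beside 8.23% of genes, with 1 at an unadjusted p under 0.05 and 1 by DESeq2, Dusp5 in both cases. The contrasts within a tissue share the WT samples or a knockout group, so they are not independent of each other. In Cic-L-KO against WT, the absolute log2 fold change had a median of 0.22 over the members and 0.12 over all genes in cerebellum, of 0.23 and 0.18 in cortex, and of 0.09 and 0.10 in lung.

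**Figure D2:**
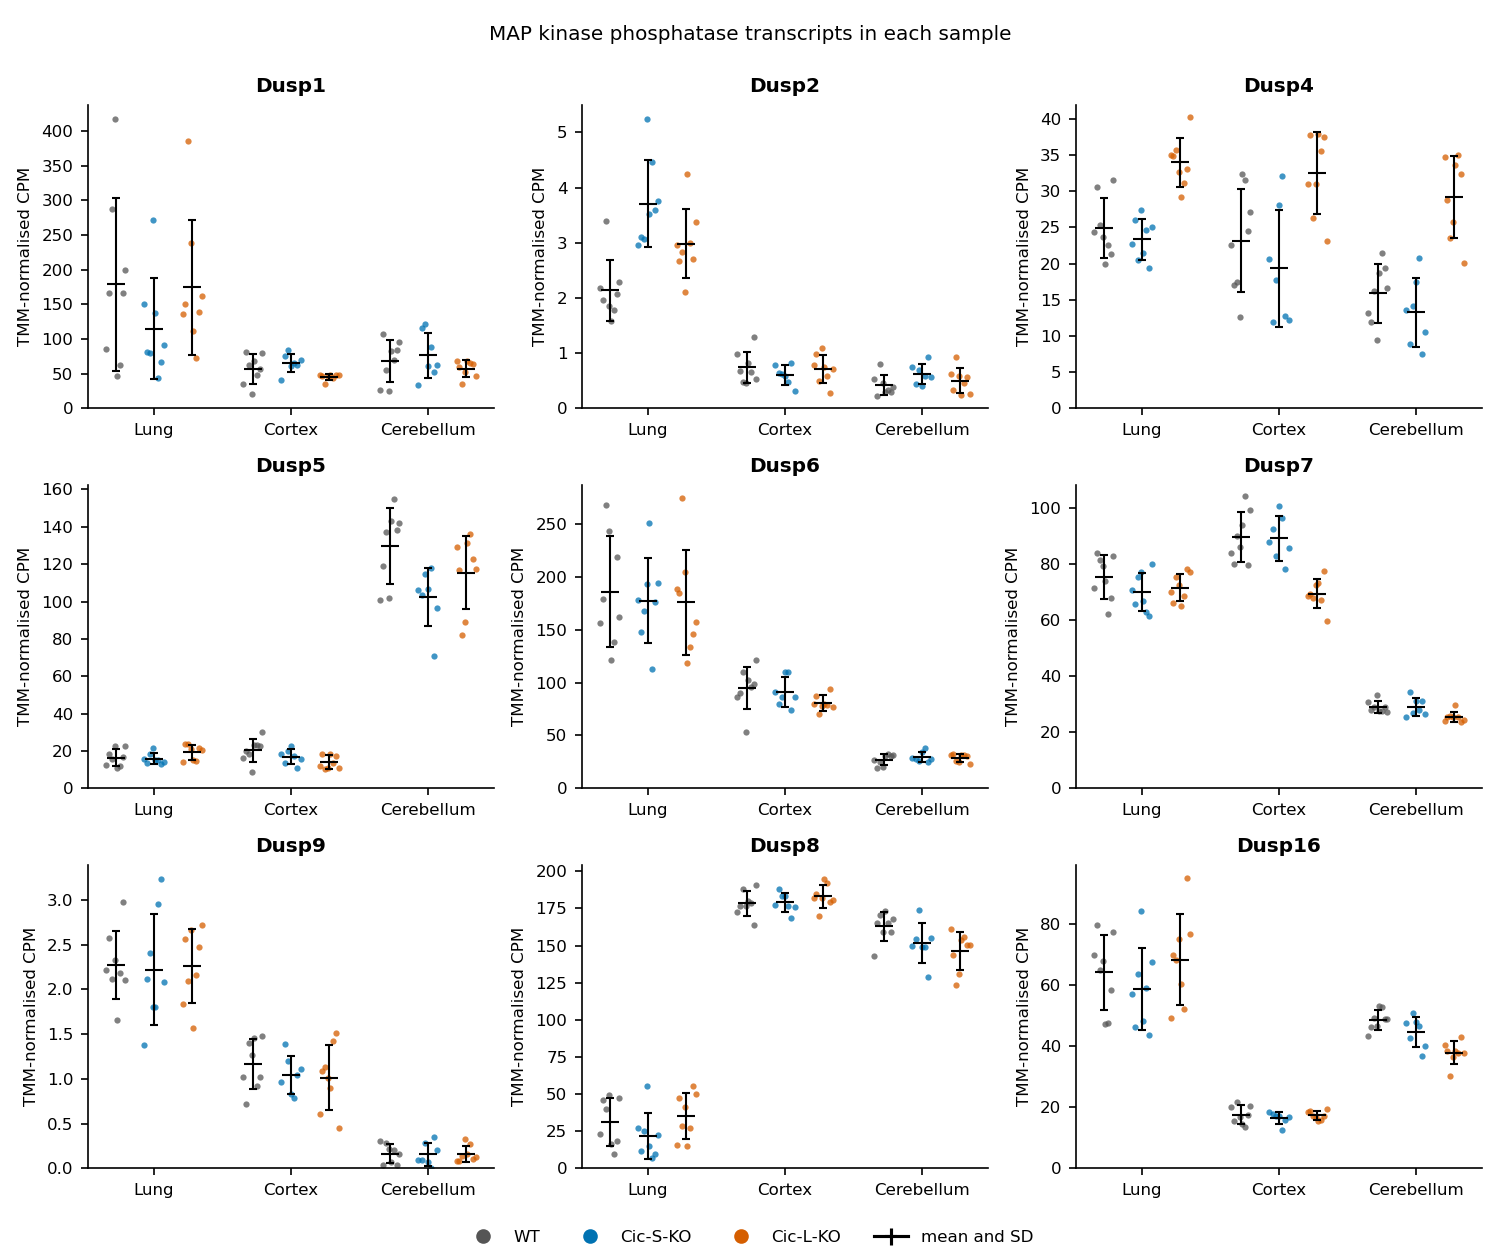
TMM-normalised CPM of each phosphatase in every sample, grouped by tissue and coloured by genotype, with the mean and SD of each group in black. The Dusp4 mean is highest in Cic-L-KO in all 3 tissues, with ranges that overlap WT, while Dusp1 and Dusp8 are spread widely in lung.

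Dusp4, the nuclear phosphatase DUSP4 of ERK, JNK and p38, lies at chr8:34807297-34819894 on the plus strand of GRCm38. In lung, its lowest, median and highest samples were 19.95, 23.98 and 31.6 CPM in WT, 19.4, 23.6 and 27.3 CPM in Cic-S-KO, and 29.2, 33.9 and 40.3 CPM in Cic-L-KO. All 8 Cic-S-KO samples lay below every Cic-L-KO sample, and 6 of 8 Cic-L-KO samples lay above every WT sample. Cic-L-KO against WT gave a log2 fold change of 0.45 (SE 0.0881, edgeR adjusted p = 0.00311), and that of Cic-S-KO against Cic-L-KO was -0.54 (SE 0.0883, edgeR adjusted p = 0.000212). Cic-S-KO did not differ from WT beyond its error, at -0.09 (95% confidence interval -0.28 to 0.09).

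In cerebellum the same gene took values of 9.42, 16.5 and 21.5 CPM in WT, 7.504, 13.6 and 20.8 CPM in Cic-S-KO, and 20.04, 30.6 and 35.03 CPM in Cic-L-KO. The lowest Cic-L-KO sample was the only one of its group within the WT range. Dusp4 rose by 0.88 on the log2 scale in Cic-L-KO against WT (SE 0.194, edgeR adjusted p = 0.00269), and Cic-S-KO lay below Cic-L-KO by a log2 difference of -1.14 (SE 0.206, edgeR adjusted p = 0.000736). Its mean was 15.9 ± 4.09 CPM in WT (SD, n = 8) and 29.2 ± 5.63 in Cic-L-KO (n = 8). These are tissues of many cell types, and a change in cell number cannot be told apart from a change in RNA per cell in any of the bulk samples. Several marker lists moved in Cic-L-KO cerebellum against WT, and their part was not tested. Of the markers tested, 3 of 3 fibroblast, 3 of 4 interneuron, 2 of 3 smooth muscle and 2 of 3 macrophage markers rose. By contrast 1 of 5 granule cell markers fell, and of 5 astrocyte markers 2 fell and 1 rose. All 5 endothelial markers also rose in Cic-L-KO cerebellum, their sum ranging from 66.0 to 90.2 CPM in WT and from 118 to 137 CPM in Cic-L-KO, and their part in the result was not tested. In lung, where Dusp4 rose as well, their sum ranged from 3068 to 3782 CPM in WT, from 2605 to 3510 CPM in Cic-S-KO and from 2971 to 4084 CPM in Cic-L-KO. There 0 of 5 passed in Cic-L-KO against WT, while 2 of 5 were lower in Cic-S-KO against WT and 2 of 5 against Cic-L-KO. Of the alveolar type 1 markers in lung, 3 of 5 rose in Cic-L-KO against WT and 3 of 5 were lower in the Cic-S-KO group than in the Cic-L-KO group. The alveolar type 1 sum ranged from 1786 to 2130 CPM in WT, from 1895 to 2251 CPM in Cic-S-KO and from 2178 to 2541 CPM in Cic-L-KO. The part of either list in the lung result was not tested.

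In cortex, WT samples of Dusp4 ranged from 12.6 to 32.4 CPM with a median of 23.6, Cic-S-KO samples from 11.9 to 32.0 with a median of 17.8, and Cic-L-KO samples from 23.1 to 37.9 with a median of 33.3. The ranges overlapped in every pair of genotypes. The knockouts differed from each other, by a log2 fold change of -0.75 for Cic-S-KO against Cic-L-KO (SE 0.233, edgeR adjusted p = 0.0164). In the same contrast 4 of 5 endothelial markers were lower, their sum ranging from 63.1 to 94.4 CPM in Cic-S-KO and from 95.9 to 142 CPM in Cic-L-KO, and their part in the result was not tested. Cic-L-KO against WT gave 0.49 (SE 0.222) and did not pass with an edgeR adjusted p of 0.0826. It passed in edgeR with a non-robust fit (adjusted p = 0.0437), with Y-linked expression as a covariate (0.0430) and with only these 2 genotypes fitted (0.0433). The other settings that kept all libraries did not bring it past the threshold. Without replicate 5 of the WT group it passed at 0.0485. The Cic-L-KO change in cortex minus that in cerebellum was -0.39 on the log2 scale, with a 95% confidence interval of -0.99 to 0.21 (edgeR adjusted p = 0.374). That fit took the regions as independent. With the replicate number as a block the value was -0.37 and passed (edgeR adjusted p = 0.00466). The labels do not say that equal numbers mark the same animal, so the result depends on an unknown match.

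**Figure D3:**
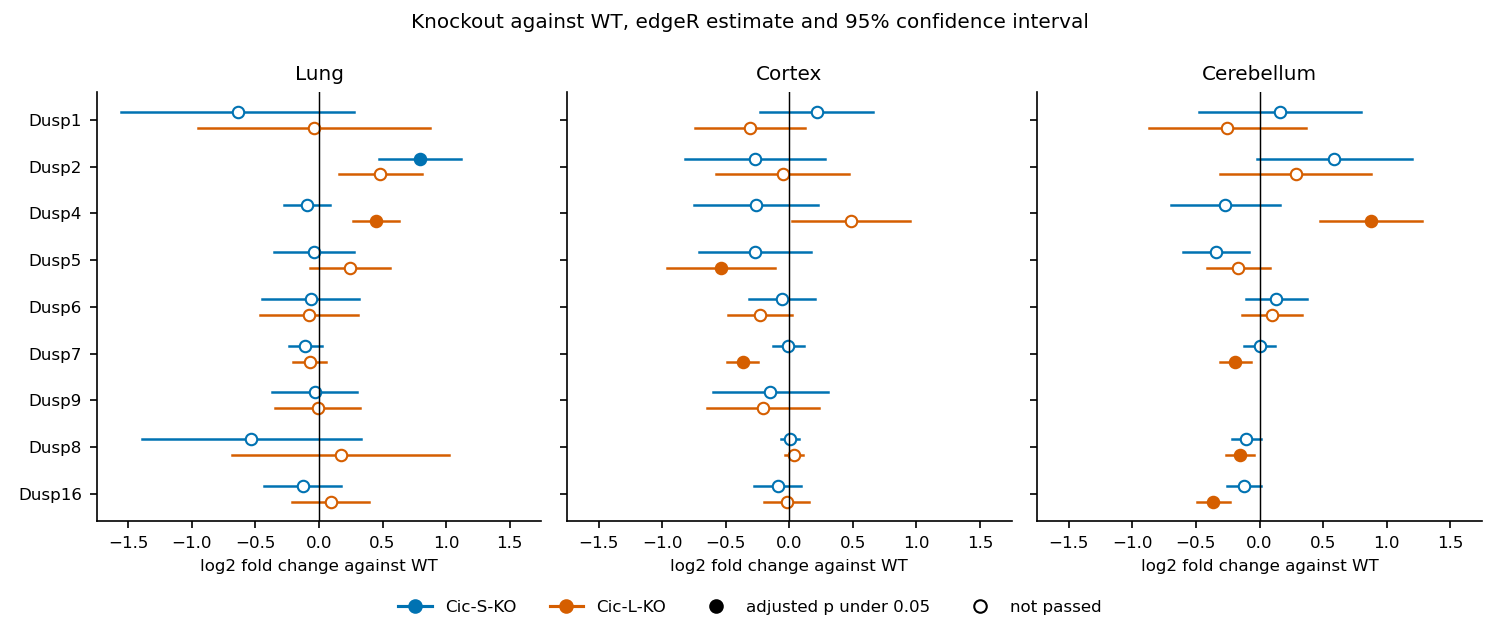
Log2 fold change of each phosphatase in Cic-S-KO and Cic-L-KO against WT, by tissue, with 95% confidence intervals from edgeR. Filled circles passed an adjusted p of 0.05: Dusp2 in Cic-S-KO lung and Dusp4, Dusp5, Dusp7, Dusp8 and Dusp16 in Cic-L-KO tissues. The cerebellum panel has no Dusp9, which did not pass the filter there.

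The 5 genes whose pattern was most like that of Dusp4, by Pearson's r of log2 CPM with each tissue's mean removed, over 70 samples and 14306 genes, were Spry4 (r = 0.84), Zswim4 (0.80), Trak1 (0.80), Maff (0.79) and Irs2 (0.78). Within lung, cortex and cerebellum, r was 0.47, 0.92 and 0.86 for Spry4, 0.91, 0.86 and 0.81 for Zswim4, and 0.55, 0.85 and 0.86 for Trak1, so that Spry4 and Trak1 were less alike in lung. For Maff it was 0.81, 0.71 and 0.86, and for Irs2 0.82, 0.96 and 0.84. Spry4 encodes a Sprouty inhibitor of receptor tyrosine kinase signalling. The samples share depth scaling and genotype, so these values are a description of likeness.

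Dusp2, a nuclear phosphatase best known from activated immune cells, was the one member that passed in a Cic-S-KO against WT contrast. It lies at chr2:127336159-127338376 on the plus strand. In lung its samples were 1.59, 2.02 and 3.39 CPM in WT (lowest, median and highest) and 2.95, 3.55 and 5.25 CPM in Cic-S-KO. The groups overlapped through a single WT sample, replicate 3, and 5 of 8 Cic-S-KO samples lay above every WT sample. The log2 fold change was 0.79 (SE 0.157, edgeR adjusted p = 0.00125), on 41 to 127 reads per lung library. Cic-L-KO lung lay between, at 2.10, 2.89 and 4.24 CPM. Its log2 fold change against WT was 0.48 (SE 0.159) with an edgeR adjusted p of 0.0759, which became 0.0208 without WT replicate 3. The knockouts did not differ from each other beyond their error, at 0.31 (95% confidence interval -0.01 to 0.63).

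Markers of immune cells moved with the same contrast. In Cic-S-KO lung against WT, 4 of 4 neutrophil markers and 3 of 3 tested macrophage markers rose, with 2 of 4 B cell markers and 1 of 5 T and NK cell markers. The summed neutrophil markers ranged from 25.1 to 123 CPM in WT and from 54.2 to 240 CPM in Cic-S-KO, and the macrophage markers from 73.3 to 97.4 CPM in WT and from 118 to 232 CPM in Cic-S-KO. The T and NK cell markers ranged from 5.88 to 8.80 CPM in WT, from 6.94 to 21.4 CPM in Cic-S-KO and from 6.93 to 18.9 CPM in Cic-L-KO. The part of these cells in the level of Dusp2 was not tested. In brain Dusp2 had 6 to 29 reads per library and passed in no genotype contrast. Its log2 fold change in Cic-S-KO cerebellum was 0.59 (SE 0.297, edgeR adjusted p = 0.225).

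Dusp5, the ERK-directed nuclear phosphatase that leads in cerebellum, lies at chr19:53529109-53542431 on the plus strand. An annotated antisense transcript shares 547 exonic bases with it, and whether the counting used strand is not given in the sources used here. In cortex its samples were 8.73, 21.4 and 30.2 CPM in WT and 10.4, 12.8 and 18.6 CPM in Cic-L-KO. Dusp5 was lower in Cic-L-KO by -0.54 on the log2 scale (SE 0.205, edgeR adjusted p = 0.0392). The groups overlapped, since WT replicate 4 was the lowest of all 16 samples, and the call was lost when any of 10 of the 23 cortex libraries was left out, without a filter on low counts, and with only the 2 compared genotypes fitted. In cerebellum the WT samples were 101, 138 and 155 CPM, the Cic-S-KO samples 70.9, 106 and 118 CPM and the Cic-L-KO samples 82.2, 120.1 and 136 CPM. The log2 fold change of Cic-S-KO against WT there was -0.34 (SE 0.124), with an edgeR adjusted p of 0.0913 and a DESeq2 adjusted p of 0.0420. Without WT replicate 1 of cerebellum it passed in edgeR, at an adjusted p of 0.0483. In lung Dusp5 was at 16.3 ± 4.61, 15.8 ± 2.85 and 19.3 ± 4.05 CPM in WT, Cic-S-KO and Cic-L-KO (SD, n = 8 each), and did not pass in any contrast.

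Dusp1, an immediate early phosphatase of p38 and JNK at chr17:26505590-26562128 on the minus strand, was the most variable member of the nuclear group in lung. Its lung samples were 46.9, 167 and 418 CPM in WT, 43.3, 86.2 and 272 CPM in Cic-S-KO, and 73.0, 145 and 386 CPM in Cic-L-KO. The coefficient of variation was 69.7%, 63.0% and 55.7%, and the 3 ranges overlapped almost fully. At that spread the confidence interval of Cic-S-KO against WT ran from -1.56 to 0.28 on the log2 scale. In cortex the Cic-L-KO samples sat close together at 35.5, 47.4 and 48.4 CPM, against 20.1, 59.7 and 81.6 CPM in WT and 40.8, 65.4 and 83.7 CPM in Cic-S-KO. There 6 of 7 Cic-S-KO samples lay above every Cic-L-KO sample. The log2 fold change between the knockouts was 0.52 (SE 0.215) and its edgeR adjusted p of 0.0664 did not pass, while DESeq2 gave 0.0422. A non-robust edgeR fit (adjusted p = 0.0310) and an edgeR fit of only these 2 genotypes (0.00360) also passed. The other edgeR settings that kept all libraries did not. It passed in edgeR at 0.0341 without Cic-S-KO replicate 1 of cortex and at 0.0152 without WT replicate 4 of cortex. In cerebellum the means were 68.3 ± 30.5 CPM in WT (n = 8), 76.4 ± 32.7 in Cic-S-KO (n = 7) and 57.3 ± 12.0 in Cic-L-KO (n = 8), with no contrast passing.

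Dusp6, the cytoplasmic ERK phosphatase with the Capicua octamer shown above, passed in none of the 9 contrasts within a tissue. It lies at chr10:99263231-99267489 on the plus strand. In lung its means were 186 ± 52.2, 178 ± 39.8 and 176 ± 49.4 CPM in WT, Cic-S-KO and Cic-L-KO (SD, n = 8 each). In cortex the samples were 53.6, 97.6 and 122 CPM in WT, 74.5, 86.5 and 110.1 CPM in Cic-S-KO, and 70.2, 79.2 and 94.3 CPM in Cic-L-KO. The lowest WT sample was again replicate 4. The log2 fold change of Cic-L-KO against WT was -0.23 (SE 0.121, edgeR adjusted p = 0.126), and without that replicate it was -0.32 with an edgeR adjusted p of 0.00501. Dusp1 also passed without it, at -0.43 with an edgeR adjusted p of 0.0357. In cerebellum Dusp6 was at 27.0 ± 5.12, 29.7 ± 4.94 and 28.9 ± 3.73 CPM in WT, Cic-S-KO and Cic-L-KO.

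Dusp7, another cytoplasmic phosphatase of ERK, lies at chr9:106368632-106375724 on the plus strand. In cortex its samples were 79.5, 87.9 and 104 CPM in WT, 78.1, 87.7 and 101 CPM in Cic-S-KO, and 59.6, 68.8 and 77.6 CPM in Cic-L-KO. Every Cic-L-KO sample lay below every sample of the other genotypes. Against WT the difference was -0.37 on the log2 scale (SE 0.0588, edgeR adjusted p = 1.23e-05), and Cic-S-KO lay above Cic-L-KO by 0.36 (SE 0.0607, edgeR adjusted p = 3.13e-05). Of 4 cortical excitatory neuron markers, 2 fell in Cic-L-KO cortex, their sum ranging from 1815 to 2018 CPM in WT and from 1381 to 1619 CPM in Cic-L-KO, and their part in the result was not tested. In cerebellum the samples were 27.2, 28.4 and 33.2 CPM in WT and 23.6, 25.4 and 29.5 CPM in Cic-L-KO, with 7 of 8 Cic-L-KO samples below every WT sample. Dusp7 was lower there by -0.19 on the log2 scale (SE 0.0588, edgeR adjusted p = 0.0211). The difference between the knockouts in cerebellum was 0.19 (SE 0.0610, edgeR adjusted p = 0.0386), and this call was lost when any of 9 of the 23 libraries was left out, without a filter on low counts, and with only the 2 compared genotypes fitted. The change in Cic-L-KO was not shown to differ between the brain regions, with a log2 difference of -0.18 (SE 0.0849, edgeR adjusted p = 0.128). In lung Dusp7 was at 75.4 ± 7.88, 69.99 ± 6.89 and 71.5 ± 4.95 CPM in WT, Cic-S-KO and Cic-L-KO. The confidence interval of Cic-L-KO against WT in lung ran from -0.21 to 0.06 on the log2 scale.

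Dusp9, the third cytoplasmic member, lies on the X chromosome at chrX:73639419-73643514 on the plus strand. It was at 2.27 ± 0.383 CPM in WT lung, 1.16 ± 0.280 in WT cortex and 0.164 ± 0.106 in WT cerebellum (SD, n = 8 each). The knockout means were 2.22 and 2.26 CPM in lung and 1.05 and 1.01 CPM in cortex, and its smallest edgeR adjusted p in the 6 contrasts in which it could be tested was 0.460.

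Dusp16, the JNK and p38 phosphatase with a Capicua octamer before its start, lies at chr6:134715468-134792625 on the minus strand. In cerebellum its samples were 43.3, 48.9 and 53.2 CPM in WT, 36.8, 46.6 and 50.8 CPM in Cic-S-KO, and 30.1, 38.2 and 43.0 CPM in Cic-L-KO. No Cic-L-KO sample reached the WT range, while Cic-S-KO overlapped both. The log2 fold change of Cic-L-KO against WT was -0.36 (SE 0.0636, edgeR adjusted p = 0.000192), and Cic-S-KO lay above Cic-L-KO by 0.24 (SE 0.0660, edgeR adjusted p = 0.0161). In cortex, where its level was lower, the samples were 13.4, 17.3 and 21.7 CPM in WT and 15.5, 17.1 and 19.4 CPM in Cic-L-KO, with a log2 fold change of -0.02 (95% confidence interval -0.20 to 0.16). The difference of the Cic-L-KO change between the regions was itself tested and passed, at 0.35 on the log2 scale (SE 0.113, edgeR adjusted p = 0.0211), in an interaction that called 2 of 9 members and 23% of 18032 genes. In lung Dusp16 was at 64.3 ± 12.3, 58.8 ± 13.3 and 68.4 ± 14.8 CPM in WT, Cic-S-KO and Cic-L-KO.

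Dusp8, a JNK and p38 phosphatase known for its high level in brain, lies at chr7:142079490-142095843 on the minus strand and shares 66 exonic bases with the opposite-strand transcript Gm32786. It varied least of the 9 members in 5 of the 6 brain groups, the exception being Cic-L-KO cerebellum where Dusp7 varied less, and Dusp1 and Dusp8 varied most in all 3 lung groups. Its coefficient of variation was 3.57% to 8.81% over the 6 brain groups and 44.4% to 71.9% over the 3 lung groups. In lung the samples were 9.91, 31.4 and 49.2 CPM in WT, 7.12, 18.7 and 55.5 CPM in Cic-S-KO, and 15.2, 35.2 and 55.3 CPM in Cic-L-KO, and no contrast passed. In cerebellum the samples were 143, 165 and 173 CPM in WT and 124, 150.1 and 161 CPM in Cic-L-KO. Dusp8 was lower there by -0.16 on the log2 scale (SE 0.0534, edgeR adjusted p = 0.0360), a call lost when any of 8 of the 23 libraries was left out and without a filter on low counts. Of 5 granule cell markers, 1 fell in Cic-L-KO cerebellum, their sum ranging from 4004 to 5212 CPM in WT and from 3168 to 4410 CPM in Cic-L-KO, and their part in the lower Dusp7, Dusp8 and Dusp16 was not tested. Cortex gave 0.04 for the same contrast (95% confidence interval -0.03 to 0.11), and the difference between regions passed at 0.19 (SE 0.0652, edgeR adjusted p = 0.0246). The interaction for Cic-S-KO called 0 members by edgeR beside 4.5% of genes, with 1 member at an unadjusted p under 0.05 and 0 by DESeq2.

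Some members varied together between the 2 brain regions when samples were matched by genotype and replicate number. Over 27 relations (9 members in 3 genotypes, 7 or 8 pairs each, two-sided exact permutation of the pairs, Benjamini-Hochberg over the 27), 7 passed by Pearson's r and 0 by Spearman's rho, whose smallest adjusted p was 0.0652. The share of other genes that would pass was not measured. Dusp4 passed in all 3 genotypes: in WT r = 0.87 (rho = 0.86, exact p = 0.00508, adjusted 0.0275), in Cic-S-KO r = 0.94 (rho = 0.86, exact p = 0.00337, adjusted 0.0275) and in Cic-L-KO r = 0.83 (rho = 0.62, exact p = 0.0107, adjusted 0.0411). The exact p of rho was 0.0107, 0.0238 and 0.115 in that order, and 0.0723, 0.107 and 0.310 after adjustment. Without the 2 samples farthest from the cortex median r was 0.59, 0.83 and 0.26, so that in Cic-L-KO the relation rested on those 2 samples. WT replicates 5 and 6 had 32.4 and 31.6 CPM in cortex and 18.7 and 21.5 CPM in cerebellum, while WT replicate 4 had 12.6 and 9.42 CPM.

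Dusp1 passed in WT (r = 0.92, exact p = 0.00149, adjusted 0.0275) and in Cic-S-KO (r = 0.91, exact p = 0.00377, adjusted 0.0275), with rho of 0.88 (exact p = 0.00724, adjusted 0.0652) and 0.93 (exact p = 0.00675, adjusted 0.0652). Dusp5 passed in WT (r = 0.78, exact p = 0.00838, adjusted 0.0377, rho = 0.88 with exact p = 0.00724) and Dusp6 in Cic-S-KO (r = 0.94, exact p = 0.00437, adjusted 0.0275, rho = 0.86 with exact p = 0.0238). Without the 2 farthest samples these 4 were 0.67, 0.74, 0.83 and 0.72. In the same order of genotypes, Dusp7 had r of -0.47, 0.21 and 0.16 and Dusp16 had -0.56, 0.06 and 0.10, none of which passed. The labels do not say that equal numbers mark the same animal.

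**Figure D4:**
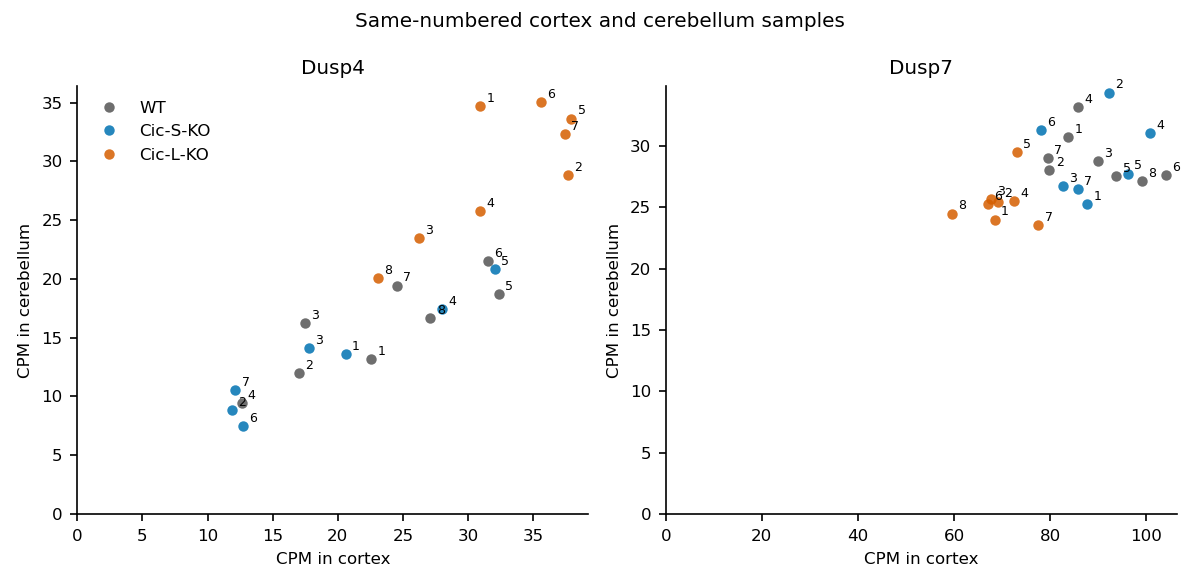
CPM of Dusp4 and Dusp7 in cortex against cerebellum, each point a pair matched by genotype and replicate number, with the number beside it. Dusp4 rises along a diagonal in WT and Cic-S-KO, while in Cic-L-KO the relation rests on 2 samples, and Dusp7 has no such line and Cic-L-KO lies to the left.

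Since Dusp1 and several other members are inducible, each was set beside the mean log2 CPM of 13 immediate early genes in the same sample, with group means removed (27 relations, permutation within genotype with 100000 draws, two-sided, Benjamini-Hochberg over the 27). The filter on low counts kept 11 of these genes in lung, 12 in cerebellum and 13 in cortex, while the mean used all 13 in each tissue. Dusp1 followed that mean in all 3 tissues: r was 0.74 in lung (n = 24, permutation p = 0.00020, adjusted 0.00108), 0.89 in cortex (n = 23, permutation p = 3.0e-05, adjusted 0.000337) and 0.96 in cerebellum (n = 23, permutation p = 1e-05, the smallest these permutations can give, adjusted 0.00027). Its rho was 0.73, 0.72 and 0.95, with permutation p of 0.00028, 0.00157 and 1e-05, and r was 0.63, 0.74 and 0.93 without the 2 samples farthest from the median. Dusp5 passed in all 3 tissues as well, with r of 0.66, 0.82 and 0.57 (permutation p = 0.00224, 5.0e-05 and 0.00369), rho of 0.65, 0.70 and 0.52 (permutation p = 0.00268, 0.00033 and 0.0138), and r of 0.53, 0.63 and 0.42 without the 2 samples. Dusp6 passed in lung (r = 0.57, permutation p = 0.00665, rho = 0.58 with p = 0.00628) and cortex (r = 0.87, permutation p = 5.0e-05, rho = 0.68 with p = 0.00171), with 0.46 and 0.67 after leaving out those samples.

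Dusp8 passed in cerebellum only among the tissues (r = 0.55, permutation p = 0.00265, adjusted 0.0102, rho = 0.58 with p = 0.00408, r = 0.53 without 2 samples), although it varied most in lung, where r was 0.33 (permutation p = 0.130, adjusted 0.234, rho = 0.36). The difference between tissues was not tested. Dusp4 passed in cortex at r = 0.53 (permutation p = 0.0164, adjusted 0.0442), but its rho of 0.45 did not (permutation p = 0.0553, adjusted 0.136) and r fell to 0.34 without the 2 samples. Dusp2, Dusp7, Dusp9 and Dusp16 passed in no tissue. How many genes outside the family would pass the same relation was not measured. In Cic-L-KO cortex 5 of 13 immediate early genes fell against WT, beside 21.9% of all genes, among them Egr4 at -0.90 and Egr1 at -0.89 on the log2 scale. Their summed CPM ranged from 767 to 2407 in WT and from 860 to 1233 in Cic-L-KO. The part of this level in the lower Dusp5 of Cic-L-KO cortex was not tested. Between the knockouts in cortex, 6 of 13 immediate early genes were higher in Cic-S-KO and 1 was lower, beside 17.4% and 16.5% of all genes. Their part in the level of Dusp1 there was not tested. In Cic-L-KO cerebellum 3 of 12 tested immediate early genes fell, beside 10.6% of all genes, their summed CPM ranging from 170.2 to 397 in WT and from 155 to 247 in Cic-L-KO. The part of that level in the lower Dusp8 of Cic-L-KO cerebellum was not tested either.

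**Figure D5:**
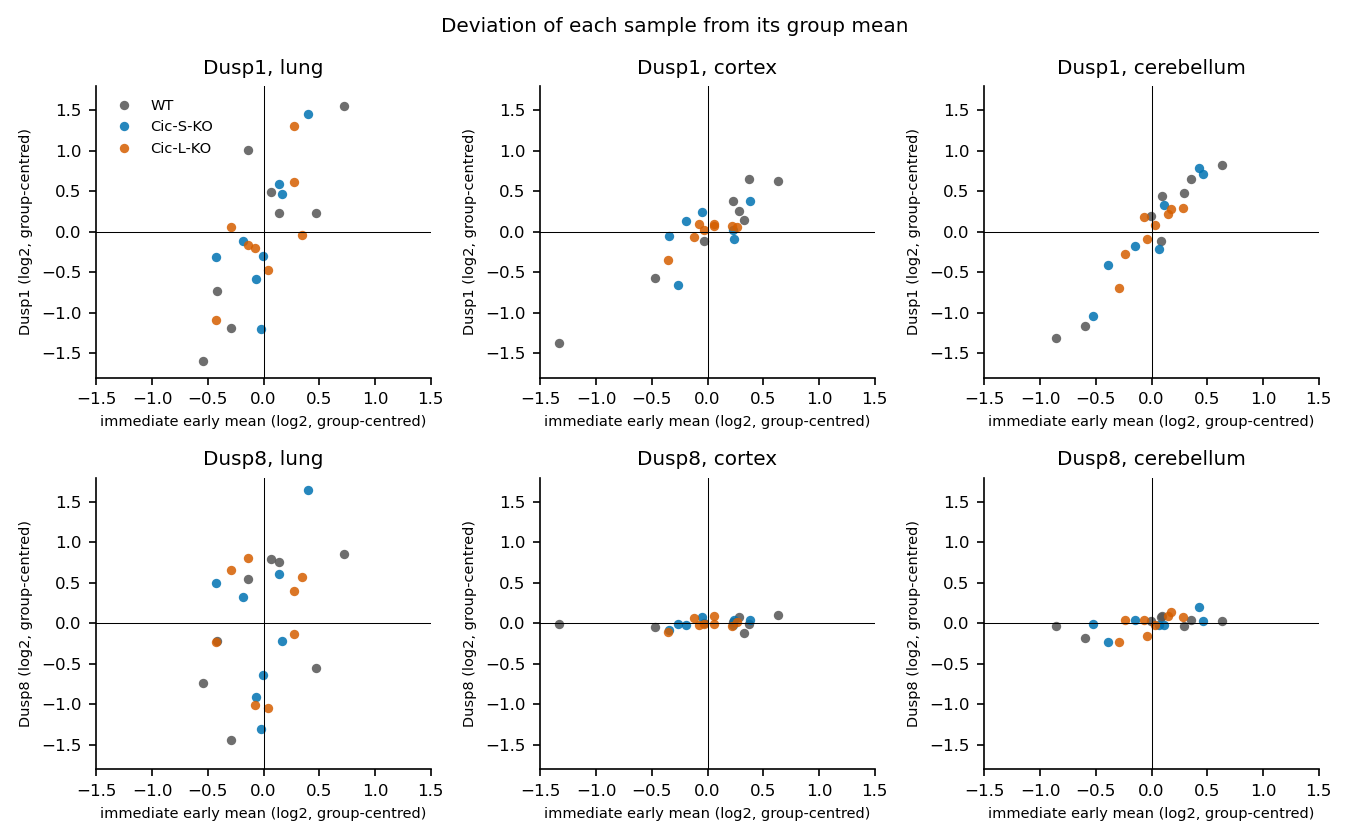
Deviation of Dusp1 (top) and Dusp8 (bottom) from the group mean on the log2 scale against that of the mean of 13 immediate early genes, by tissue and genotype. Dusp1 follows the mean in each tissue. Dusp8 varies little in brain, although its relation passed in cerebellum (r = 0.55), and is widely spread in lung, where the relation did not pass (r = 0.33).

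Other genes of the pathway were counted from lists. Among all genes, Cic-L-KO against WT called 21.4% higher and 21.9% lower in cortex and 10.9% higher and 10.6% lower in cerebellum, and the counts of these lists are to be read beside those shares. Of 12 further ERK feedback genes, 6 rose and 3 fell in Cic-L-KO cortex against WT. Etv4, an ETS factor repressed by Capicua, was up by 1.09 on the log2 scale, Spry4 by 0.55 and Spred3 by 0.57, while Etv1 was at -0.41 and the stress-inducible Ier3 at -0.48. Cic-L-KO cerebellum had 1 higher, Etv4 at 0.31, and 1 lower, Etv1 at -0.34. In lung Etv4 alone passed in either knockout, at 0.74 for Cic-S-KO and 0.40 for Cic-L-KO on the log2 scale. The list was chosen with earlier results in view.

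Of the 10 MAP kinases, the substrates of the family, 2 rose and 5 fell in Cic-L-KO cortex. Mapk8, which encodes JNK1, was at -0.31 and Mapk3, which encodes ERK1, at 0.36 on the log2 scale. In Cic-L-KO cerebellum 1 of the 10 rose, Mapk3 at 0.12, and 2 fell, with Mapk8 at -0.19. In Cic-S-KO lung the p38 delta gene Mapk13 was at 0.58 and Mapk9 at -0.13.

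Among 9 tested atypical dual-specificity phosphatases, which lack the MAP kinase docking domain, 4 rose and 2 fell in Cic-L-KO cortex, with Dusp26 at 0.67 and Dusp14 at -0.77 on the log2 scale. In Cic-L-KO cerebellum 4 of 10 rose, Dusp26 at 0.40 among them, and 1 fell. Of the 5 tested MAP kinase phosphatases outside the family, Ptpn5, the striatum-enriched tyrosine phosphatase, rose in Cic-L-KO cortex by 0.22 and in Cic-L-KO cerebellum by 0.72, and Ptprr rose in cortex by 0.36. Ppm1a and Ppm1b, which encode serine/threonine phosphatases, were lower in Cic-L-KO cortex at -0.13 each on the log2 scale, so that 2 of the 5 rose and 2 fell there.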

How the data were processed

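Polyadenylated RNA from flash-frozen tissue was sequenced, per the labels' protocols. The table deposited by the authors holds raw counts, 1 row for each of 50789 versioned Ensembl identifiers, in 70 libraries. STAR 2.7 and GRCm38.p6 are named in the submitters' processing notes, while the counter, annotation and strand setting are not given in the sources used here. Symbols, positions and exon lengths came from GENCODE M21, where 50725 identifiers matched without their version and 49135 with it. Of 238 pairs of replicates 0 held identical counts, and the smallest chi-square per degree of freedom was 4.17.

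Counts were tested with edgeR 4.0.16 in R 4.3.3: filterByExpr, TMM, a robust quasi-likelihood fit per tissue holding all 3 genotypes, and 1 fit over both brain regions for the interactions and the WT regions, with Benjamini-Hochberg adjustment over all genes tested and a threshold of 0.05. Each SE was derived from the edgeR F statistic. CPM are scaled by TMM, RPKM divides them by exon length, and relations used log2 CPM with a prior count of 2. In simulated counts in which 200 genes were given a log2 difference of 1, edgeR recovered 180 over 16574 genes in the lung design, 173 over 16740 in cortex, 162 over 16475 in cerebellum and 145 over 17652 in the interaction. In that order, 4.76%, 6.49%, 4.14% and 5.23% of edgeR calls were false, and 8.08%, 12.4%, 11.9% and 9.15% of DESeq2 calls. Most genotype changes of the members were smaller than 1, so the simulation does not give the power to find them. DESeq2 1.42.0 and the other settings tried are given in the closing section. All members matched are named, and listed genes are named from those past the threshold, except 1 that is not reported here. The members and lists were chosen with earlier results of these data known. The relations among members and the lung likeness lists were added after the values had been seen.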

Additional observations from a re-analysis of the deposited data

Results flagged for a closer look

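Over 81 groups of a member, tissue and genotype, 6 held a sample that stood apart by Dixon's ratio of gap to range, where chance gives about 1 in 20, or 4.05. Dusp1 and Dusp8 were both highest in the same library of Cic-S-KO lung, replicate 4, at 272 CPM for Dusp1 (others 43.3 to 150) and 55.5 CPM for Dusp8 (others 7.12 to 27.0). Dusp2 in WT lung was highest in replicate 3, at 3.39 CPM (others 1.59 to 2.28). Dusp1 was lowest in Cic-L-KO cortex replicate 3, at 35.5 CPM (others 43.5 to 48.4). In cerebellum, Dusp7 was highest in Cic-L-KO replicate 5, at 29.5 CPM (others 23.6 to 25.7), and Dusp8 was lowest in WT replicate 1, at 143 CPM (others 159 to 173).

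The change of 2 members in Cic-L-KO differed between cortex and cerebellum by the edgeR interaction test. Dusp16 differed by 0.35 on the log2 scale (edgeR adjusted p = 0.0211, range 0.00917 to 0.0562 over 8 alternatives), with 8 of 8 Cic-L-KO samples below every WT sample in cerebellum and 0 of 8 in cortex. Dusp8 differed by 0.19 (edgeR adjusted p = 0.0246, range 0.00414 to 0.0448).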

How the results depend on the processing

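The count of called members was recomputed with DESeq2, RLE scaling, no filter on low counts, a stricter filter (mean of 50 counts or more), a non-robust fit, Y-linked expression as a covariate, GC content removed, only the compared genotypes, a minimum absolute log2 fold change of 0.5, the replicate number as a block, and each library left out. DESeq2 called 2 in Cic-L-KO lung and 1 in Cic-S-KO cerebellum, both against WT. Between the knockouts in cortex DESeq2 called 3. Without a low-count filter the count was 1 in Cic-L-KO cortex against WT and 1 in the Cic-L-KO interaction, and in cerebellum Dusp8 (Cic-L-KO against WT) and Dusp7 (between the knockouts) were lost too. Requiring a log2 fold change of 0.5 left 0 in Cic-L-KO lung, 1 in Cic-L-KO cortex and 1 in Cic-L-KO cerebellum against WT, and 1 between the knockouts in cortex and 1 in cerebellum. With 1 library left out, the count ran from 1 to 2 in Cic-L-KO lung, from 1 to 4 in Cic-L-KO cortex (4 without WT replicate 4) and from 0 to 1 in Cic-S-KO cerebellum. With the replicate block it was 1 in Cic-L-KO cortex against WT, 1 between the knockouts in cerebellum, and 4 in the Cic-L-KO interaction, where Dusp4 (-0.37, edgeR adjusted p = 0.00466) and Dusp6 (-0.32, edgeR adjusted p = 0.00882) were added; Dusp8 in Cic-L-KO cerebellum was lost with it. The block used the replicate numbers of the sample titles. In Cic-S-KO brain these run from 1 to 7, while the library names skip 2 and end at 8. A block by library number was not tried. After group means were removed, same-numbered cortex and cerebellum samples correlated by 0.138 on average, over 0.1 in 16 of 23 pairs. Same-numbered samples of different genotypes correlated by 0.146 in lung, 0.0777 in cortex and 0.0222 in cerebellum. Pairs of unequal number were not measured, so these values do not decide whether equal numbers mark the same animal. Of 1223 alternative values of single members, 1159 kept direction and side of the threshold, 37 lost a call and 10 gained 1, where left-out libraries were counted for called members only. Leaving out a library brought a further 7 uncalled values past the threshold. The direction turned in 17, all uncalled and small: Dusp1 in Cic-L-KO lung with the block (0.0637), Dusp8 in cortex with GC removed (-0.0653 in Cic-S-KO, -0.0153 in Cic-L-KO), Dusp16 in Cic-L-KO cortex with GC removed (0.0222), Dusp7 in Cic-S-KO cortex (0.00372 unfiltered, 0.00795 with the stricter filter, 0.00124 with 2 genotypes), Dusp7 in Cic-S-KO cerebellum (-0.00174 with RLE, -0.00103 with DESeq2, -0.00236 unfiltered, -0.00178 with the stricter filter, -0.0230 with GC removed, -0.0142 with the block), and in the Cic-S-KO interaction Dusp4 (-0.00524 with DESeq2, -0.0249 with GC removed, -0.00599 with the block) and Dusp7 (0.00633 with the stricter filter). Causes were not tested. Dusp2 and Dusp9 in brain are limited by depth.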

Other observations

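The members were also compared with each other within a tissue, as r of log2 CPM with group means removed (36 pairs in each of 3 tissues, permutation within genotype, Benjamini-Hochberg over the 108). In lung 12 pairs passed, in cortex 4 and in cerebellum 9, all positive. The share of pairs of other genes that would pass was not measured, so these counts do not set the family apart. The p-values given in pairs are those of r and rho. In lung Dusp8 went with Dusp7 (r = 0.82, rho = 0.79, n = 24, adjusted permutation p = 0.00027 and 0.000216) and Dusp16 (r = 0.81, rho = 0.80, adjusted permutation p = 0.000463 and 0.00054), and Dusp1 with Dusp6 (r = 0.82, rho = 0.82, adjusted permutation p = 0.00027 and 0.00054). Without the 2 farthest samples these were 0.81, 0.75 and 0.85. In cerebellum Dusp4 went with Dusp6 (r = 0.86, rho = 0.85, n = 23, adjusted permutation p = 0.00027 and 0.000216, 0.83 without the 2 samples) and Dusp5 with Dusp16 (r = 0.83, rho = 0.77, adjusted permutation p = 0.00027 and 0.00084, 0.69 without them). In cortex Dusp5 went with Dusp6 (r = 0.85, rho = 0.77, adjusted permutation p = 0.000463 and 0.00054, 0.69 without them). Differences of a pair between tissues were not tested, and the samples share scaling and depth.

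The lung spread of Dusp1 and Dusp8 had different closest neighbours among 13089 genes over the 24 lung samples, as a description with no p. Those most like Dusp1 were Ier2 (r = 0.92), Plk2 (0.92), Ccn2 (0.90), Klf2 (0.90) and Jun (0.88). Those most like Dusp8 were Klf4 (0.97), S1pr1 (0.95), Nrarp (0.95), Trib2 (0.95) and Foxf1 (0.94). The spreads were not separate, since Dusp1 and Dusp8 also varied with each other in lung (r = 0.69, rho = 0.73, adjusted permutation p = 0.00364 and 0.00252).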
